A study of Mus musculus with 2 samples.

Results

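The NF-kB subunits and their feedback regulators were followed at the RNA level in single lung immune cells as a list of 10 genes, taken from both count matrices by Ensembl identifier out of 29413 genes with a shared identifier. The list holds the subunit genes Nfkb1, Nfkb2, Rel, Rela and Relb, the inhibitor genes Nfkbia, Nfkbie and Nfkbiz, and the feedback genes Tnfaip3 and Birc3. All 10 had the same symbol in both matrices and UMIs (unique molecular identifiers, one per captured RNA molecule) in both libraries.

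Both libraries came from female Balb/c mice that had received labelling-4T1 cells, a mammary carcinoma line engineered to mark the cells around it, by intravenous injection. Lungs with metastases were collected 7 days later, dissociated and sorted by FACS, and the cells were run on the 10x Genomics 3′ platform. The distal library holds immune cells labelled as distal lung and the niche library those labelled as niche. Strain, sex, injected cells and time were shared by the groups, no uninjected lung was analysed here, and how many mice were used and how cells were gated is not given in the sources used here.

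NF-kB is a family of dimeric transcription factors that inhibitor proteins of the IkB family hold in the cytoplasm until receptors such as those for TNF, interleukin-1 or microbial products trigger their degradation. In the canonical arm Rela or Rel pair with p50, the product of Nfkb1, whereas in the non-canonical arm Relb pairs with p52, the product of Nfkb2. Several inhibitors are themselves NF-kB target genes, so their RNA is commonly read as a sign of recent signalling, and the pathway is known for its roles in macrophage and neutrophil inflammation and in dendritic cell maturation.

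Promoter windows from RefSeq (GRCm38.p6), 250 bases before to 50 bases after an annotated start site, were found for 7 of the 10 genes: Nfkb2, Rel, Rela, Nfkbia, Nfkbie, Tnfaip3 and Birc3. The windows were searched on both strands for a kB-like motif, GGG followed by any 3 bases and then TTCC. Its matches are the capitals below, and no other motif was searched. At least 1 match was present for 5 of the 7 genes, the exceptions being Rela and Birc3, against 6.31% of 27025 genes in the table and 5.56% of its 32851 windows. A match describes the letters of the window and not a bound site. The windows of Nfkbia, Tnfaip3 and Nfkb2 are shown because the class differences described below turn on these genes, and that of Rela because it held no match.
Nfkbia, chr12:55492598-55492897, minus strand: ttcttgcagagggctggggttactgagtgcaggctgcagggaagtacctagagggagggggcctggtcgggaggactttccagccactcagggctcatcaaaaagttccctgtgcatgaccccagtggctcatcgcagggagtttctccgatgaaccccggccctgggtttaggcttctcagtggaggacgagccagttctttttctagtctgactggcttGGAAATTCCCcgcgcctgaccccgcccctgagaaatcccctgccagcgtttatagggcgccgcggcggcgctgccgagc
Tnfaip3, chr10:19015361-19015660, minus strand: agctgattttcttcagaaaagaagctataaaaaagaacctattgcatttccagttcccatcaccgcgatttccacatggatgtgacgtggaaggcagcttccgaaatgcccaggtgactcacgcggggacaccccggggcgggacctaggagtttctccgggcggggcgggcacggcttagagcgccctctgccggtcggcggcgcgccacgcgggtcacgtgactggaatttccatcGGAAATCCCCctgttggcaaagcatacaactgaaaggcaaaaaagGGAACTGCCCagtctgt
Nfkb2, chr19:46304487-46304786, plus strand: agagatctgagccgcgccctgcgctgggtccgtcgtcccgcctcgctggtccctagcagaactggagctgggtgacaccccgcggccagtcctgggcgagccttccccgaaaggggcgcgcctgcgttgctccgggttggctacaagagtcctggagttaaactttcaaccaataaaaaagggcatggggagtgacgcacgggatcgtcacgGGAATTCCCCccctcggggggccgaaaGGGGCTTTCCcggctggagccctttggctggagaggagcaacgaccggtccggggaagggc
Rela, chr19:5637291-5637590, plus strand: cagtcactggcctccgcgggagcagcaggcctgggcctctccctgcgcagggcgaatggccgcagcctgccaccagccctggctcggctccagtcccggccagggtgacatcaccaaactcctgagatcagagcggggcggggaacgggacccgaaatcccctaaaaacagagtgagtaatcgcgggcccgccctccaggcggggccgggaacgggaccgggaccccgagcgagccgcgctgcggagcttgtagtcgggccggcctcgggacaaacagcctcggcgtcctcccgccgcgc
In Nfkbia the match began 29 bases before the start site. In the Tnfaip3 window shown the matches began 12 bases before and 33 bases after it, and in the Nfkb2 window shown 38 and 11 bases before it.

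The distal matrix held 3945 barcodes with 22323465 UMIs and the niche matrix 3242 barcodes with 38036915 UMIs, and 4 barcode sequences were found in both. After filtering, 3534 distal cells had a median of 5785 UMIs and 3081 niche cells one of 11197 UMIs. The deposited files carry no cell labels, so cells of both libraries were clustered together without the NF-kB genes, and clusters were named from marker genes. These rebuilt names mean T cell-like, macrophage-like and so on, and they are shortened below. Classes with at least 30 cells were described, which were 14 in the distal and 6 in the niche library. Lymphoid classes (T, B and NK cells) held 607 distal and 81 niche cells, and myeloid classes 2475 and 2479. The mix differed between libraries, with 1133 distal against 10 niche alveolar macrophages and 537 against 2074 cells of the class named macrophage, which carried the complement and scavenger receptor genes of interstitial macrophages. The class named conventional dendritic cell was cluster 32 alone, led by Xcr1 and Cd207. Cluster 33, led by Mgl2 and the conventional dendritic marker Cd209a, stayed unnamed and is not part of it. Although both samples are labelled as immune cells, 102 distal and 34 niche cells carried endothelial or fibroblast markers. With 1 library in each group there is no replicate and no test, and every 95% interval below covers counting error only.

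Relb, the partner of p52 in the non-canonical arm, was highest in migratory dendritic cells, the Ccr7-expressing class that carries antigen to lymph nodes. Its level there was 685 CPM (UMIs of a gene scaled to all UMIs of the class, 95% interval 577 to 808, 32 cells) in the distal library and 624 CPM (539 to 718, 35 cells) in the niche library. In each of the other 13 distal classes Relb lay between 19.0 CPM in cycling alveolar macrophages and 58.4 CPM in non-classical monocytes, and in the other 5 niche classes between 33.9 and 64.9 CPM. The migratory dendritic interval overlapped that of no other class in either library, while each neighbouring pair below it overlapped.

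Nfkb2, which encodes the p100 precursor of p52, was likewise highest in migratory dendritic cells, while the order of the classes below differed from that of Relb. It stood at 233 CPM (172 to 309) in distal and 227 CPM (177 to 286) in niche migratory dendritic cells, above a median of 33.1 CPM over the 14 distal classes and of 48.3 CPM over the 6 niche classes. Rel, the lymphoid-enriched c-Rel subunit, was also highest there, at 617 CPM (514 to 734) and 669 CPM (581 to 766). Unlike Relb, Rel had high levels elsewhere too, at 423 CPM (371 to 479) in distal non-classical monocytes and 299.5 CPM (257 to 348) in distal B cells, with 189 CPM (110.1 to 303) in the 38 niche B cells. The lowest Rel level was 59.5 CPM (38.9 to 87.2), in neutrophils, among the distal classes and 41.8 CPM (19.1 to 79.3), in stromal cells, among the niche classes.

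Nfkb1 and Rela, which encode the p105 precursor of p50 and the p65 subunit, varied less. Nfkb1 ranged 2.89-fold over the distal classes, from 84.4 CPM in conventional dendritic cells to 244 CPM (205 to 287) in non-classical monocytes, whose interval overlapped that of NK cells at 159 CPM (94.0 to 251). Rela ranged 3.18-fold, from 26.0 CPM in conventional dendritic cells to 82.6 CPM in migratory dendritic cells, against 36.1-fold for Relb. The plot of all 10 genes by class shows these patterns side by side.

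**Figure D1:**
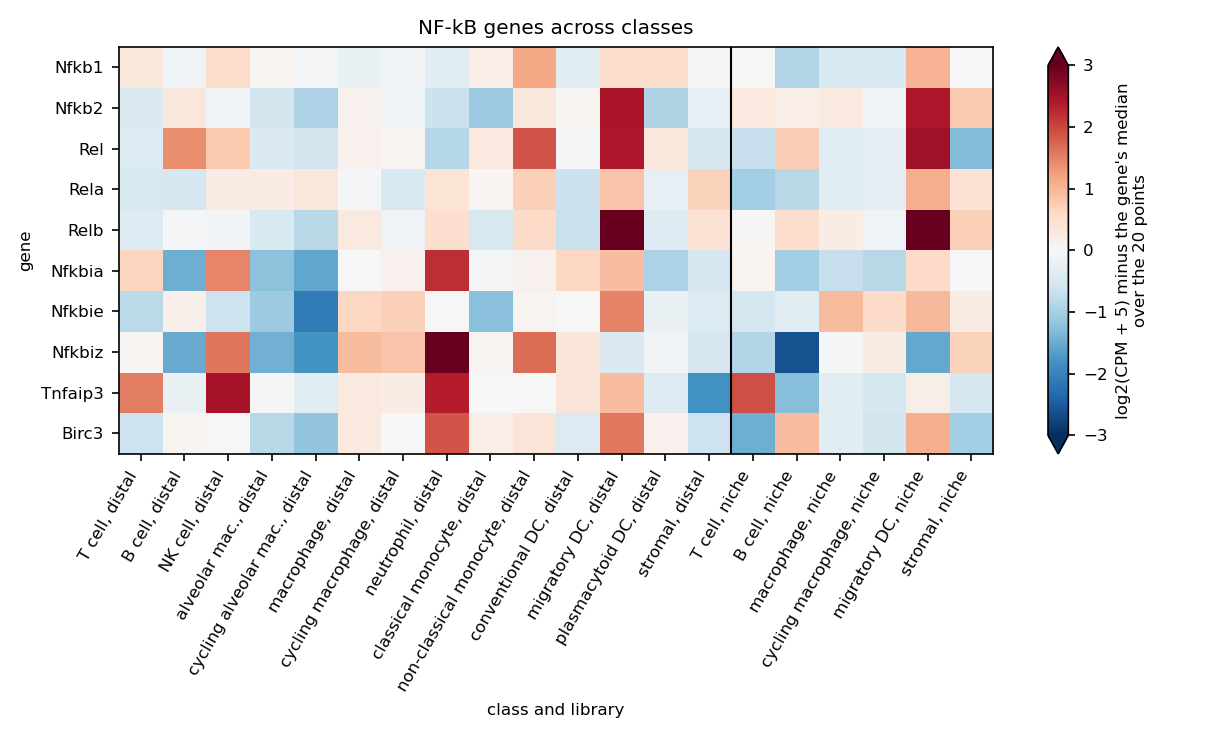
Level of each NF-kB gene (rows) in each class and library with at least 30 cells (columns, distal to the left of the line and niche to the right), as log2(CPM + 5) minus the gene's median over the 20 points. Relb, Nfkb2 and Rel are highest in migratory dendritic cells of both libraries, and Nfkbia, Nfkbiz, Tnfaip3 and Birc3 in distal neutrophils or NK cells.

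Nfkbia encodes IkB-alpha, the inhibitor that NF-kB resynthesises after its own activation. It was highest in distal neutrophils at 2615 CPM (2466 to 2771, 358 cells), then in NK cells at 1559.6 CPM (1338 to 1807, 39 cells) and in migratory dendritic cells at 1069 CPM (932 to 1219.7). These 3 classes did not overlap each other or the next, T cells at 877 CPM (833 to 921). The lowest distal levels were in alveolar macrophages at 236 CPM, B cells at 199 CPM and cycling alveolar macrophages at 186 CPM, of which the first and the last did not overlap. In the niche library Nfkbia was highest in migratory dendritic cells at 838 CPM (740 to 946), which overlapped T cells at 596 CPM (457 to 764), and lowest in B cells at 267 CPM (171 to 397).

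Nfkbiz encodes IkB-zeta, an atypical nuclear family member that acts as a cofactor at selected inflammatory genes. Distal neutrophils again held the highest level, 814 CPM (732 to 904), followed by non-classical monocytes at 309 CPM (266 to 358) and NK cells at 291 CPM (200.2 to 408), which overlapped. Alveolar macrophages at 30.8 CPM (27.2 to 34.8), B cells at 29.4 CPM (17.1 to 47.1) and cycling alveolar macrophages at 23.2 CPM (14.5 to 35.1) were lowest. Migratory dendritic cells, high for Nfkbia, were not high for Nfkbiz, with 68.0 CPM (37.2 to 114) in the distal and 28.8 CPM (13.2 to 54.7) in the niche library.

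Nfkbie encodes IkB-epsilon, an inhibitor of Rel- and Rela-containing dimers. It was highest in distal migratory dendritic cells at 131 CPM (86.4 to 191), overlapping cycling macrophages at 74.9 CPM (58.1 to 95.2), and lowest in cycling alveolar macrophages, where 6 UMIs gave 6.32 CPM (2.32 to 13.8). In the niche library migratory dendritic cells at 89.6 CPM (59.5 to 129) and macrophages at 88.4 CPM (84.9 to 92.0) were alike within counting error. Thus the 3 inhibitor genes did not share a class order.

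Tnfaip3 encodes A20, a ubiquitin-editing enzyme that terminates NF-kB signalling. In the distal library it was highest in NK cells at 361 CPM (259 to 490) and neutrophils at 334 CPM (282 to 393), which overlapped, then in T cells at 187 CPM (167 to 208). Niche T cells held 249.9 CPM (163 to 366) from 26 UMIs, the highest of the 6 niche classes. Distal stromal cells were lowest at 13.99 CPM (3.81 to 35.8) from 4 UMIs. Birc3 encodes cIAP2, a ubiquitin ligase of TNF receptor complexes that also restrains the non-canonical kinase. Its highest levels were in distal neutrophils at 240.2 CPM (196 to 291) and migratory dendritic cells at 194 CPM (139 to 265), which overlapped, and its lowest distal level was 24.2 CPM (15.4 to 36.3) in cycling alveolar macrophages.

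**Figure D2:**
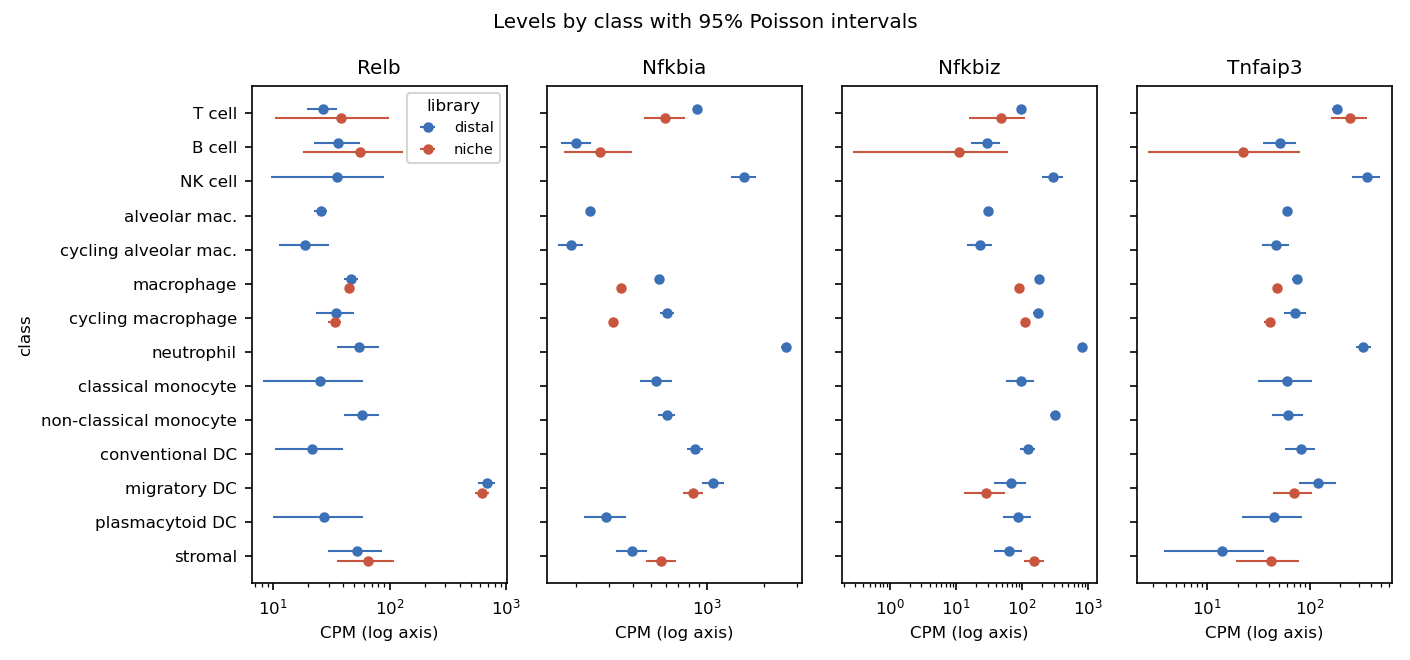
Levels of Relb, Nfkbia, Nfkbiz and Tnfaip3 (CPM on a log axis) by class, with 95% Poisson intervals, in the distal (blue) and niche (red) libraries. Relb separates migratory dendritic cells at 685 and 624 CPM from every other class shown, whereas Nfkbia and Nfkbiz peak in distal neutrophils.

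Each class was then set against the summed other named classes of its library, and a gene was counted as higher or lower when its interval lay wholly beyond 1.5-fold. In distal migratory dendritic cells 6 of the 10 NF-kB genes were higher, where 4.62% of 11744 genes were, and none was lower, where 7.83% were. These 6 were Relb (log2 ratio 4.39, 4.11 to 4.65), Nfkb2 (2.93), Rel (2.49), Nfkbie (1.92), Birc3 (1.91) and Nfkbia (1.18). In the niche library 7 genes were higher, where 7.26% of 11840 genes were, and Nfkbiz was lower (log2 ratio -1.63, -2.84 to -0.78), where 8.61% were. The niche list held Nfkb1 (1.56) and Rela (1.57) and lacked Nfkbie, beside Relb (3.88), Rel (2.94), Nfkb2 (2.31), Birc3 (1.54) and Nfkbia (1.29). All members together had a median log2 ratio of 1.55 in each library, against -0.32 and -0.11 over all genes tested.

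Other genes of the pathway were read from lists of receptors, kinases and adaptors, further inhibitors and feedback genes, and targets. In distal migratory dendritic cells 5 of 31 kinases and adaptors were higher and 1 was lower. They included Traf1, an adaptor of TNF receptors, at 1137 CPM against 72.6 CPM in the other classes, and Map3k14, which encodes the kinase NIK that drives p100 processing, at 151 against 13.97 CPM. In the niche library Traf1 stood at 1091 against 57.3 CPM and Map3k14 at 138 against 9.66 CPM. Of the receptors, 2 of 14 tested were higher and 5 lower in the distal library, the lower ones including the Toll-like receptor genes Tlr2, at 34.0 against 239.6 CPM, and Tlr4 and Tlr7, for which no UMI was seen. Targets split, with 10 of 31 higher and 8 lower in the distal and 12 higher and 12 lower in the niche library. The chemokine gene Ccl22, at 976 against 2.23 CPM in the distal library, was among the markers that named the class and is no result.

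Distal neutrophils had another set. Nfkbiz (log2 ratio 3.15, 2.98 to 3.31), Nfkbia (2.61, 2.52 to 2.70), Birc3 (2.28) and Tnfaip3 (2.12) were higher than in the other classes, 4 of 10 genes where 7.09% of all genes were, and none was lower, where 24.5% were. The median over all genes was -1.10 in this class, and when ratios were centred on that median 7 of the 10 genes were higher. None of the 5 subunit genes was among the 4, but the 7 counted after centring included subunit genes, so their absence depended on the scaling. The further inhibitor gene Nfkbid stood at 288 CPM against 23.8 CPM, and the targets Il1b, at 26683 against 1184 CPM, and Ptgs2, which encodes an inducible prostaglandin synthase, at 1139 against 28.3 CPM. The adaptor gene Myd88 was at 238 against 63.6 CPM. The 29 niche neutrophils were too few for the comparison, and their levels were 1994 CPM (1557 to 2515) for Nfkbia and 618 CPM (387 to 935) for Nfkbiz.

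Alveolar macrophages, the resident phagocytes of the airspaces, were the opposite case. In the distal library 7 of the 10 genes were lower there, where 18.9% of all genes were, and none was higher, where 14.2% were. The lowest ratios were those of Nfkbiz (-2.44, -2.64 to -2.26), Nfkbie (-1.495) and Nfkbia (-1.49), followed by Birc3 (-1.13), Relb (-0.98), Rel (-0.82) and Tnfaip3 (-0.75). Nfkb1 at 111 CPM, Nfkb2 at 24.5 CPM and Rela at 53.2 CPM were not counted. Of 31 kinases and adaptors tested 4 were higher and 3 lower. Distal non-classical monocytes, which patrol the vessel wall, had higher Rel (1.99, 1.79 to 2.18), Nfkbiz (1.60) and Nfkb1 (1.19), 3 of 10 genes where 5.93% of all genes were, and none lower, where 7.6% were.

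The other classes each had few members counted. Distal macrophages had higher Nfkbie (1.37, 1.15 to 1.58) and Nfkbiz (1.07, 0.94 to 1.20), where 5.19% of all genes were, and cycling macrophages higher Nfkbie (1.13), where 5.53% were. None was lower in either class, where 15.9% and 8.7% were. Conventional dendritic cells, here the Xcr1-led cluster 32, had higher Nfkbia (0.87), where 3.48% were, and none lower, where 9.44% were. Distal stromal cells had none higher, where 11% were, and lower Tnfaip3 (-2.42), where 6.35% were. Cycling alveolar macrophages shared the direction of the larger alveolar class, with lower Nfkbie (-2.47), Nfkbiz (-2.25), Nfkbia (-1.40) and Birc3 (-1.16), where 5.52% were, and none higher, where 6.7% were. In the niche library T cells had higher Tnfaip3 (2.43, 1.79 to 2.96), where 5.13% of all genes were, and B cells, with 1 UMI, lower Nfkbiz (-2.49), where 4.41% were, and none higher, where 3.83% were. None of the 10 genes was counted in distal classical monocytes, where 2.91% of all genes were higher and 3.74% lower, or in plasmacytoid dendritic cells, where 3.97% were higher and 2.31% lower. The same held for niche macrophages (1.32% higher, 8.34% lower), cycling macrophages (5.29% and 4.53%) and stromal cells (11.1% and 2.42%).

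Lymphoid and myeloid cells were compared within each library. In the distal library Tnfaip3 was higher in lymphoid cells, at 163 CPM (148 to 180) against 72.7 CPM (68.6 to 76.9), a log2 ratio of 1.17 (0.9996 to 1.33). Nfkbia was higher as well, at 749 against 443 CPM with a log2 ratio of 0.76 (0.68 to 0.83). These were 2 of 10 genes, where 12.7% of 11438 genes were higher, and none was lower, where 19.4% were. Some members not counted still had intervals that excluded equal levels. They were Rela (-0.67, -1.04 to -0.34), Relb (-0.48), Nfkbie (-0.36), Nfkbiz (-0.31), Rel (0.31) and Nfkb1 (0.22). The intervals of Nfkb2 and Birc3 held equal levels. In the niche library Tnfaip3 was again higher in lymphoid cells, at 156 CPM (107 to 219) from 33 UMIs against 47.0 CPM (log2 ratio 1.75, 1.19 to 2.23), 1 of 10 genes where 6.96% of 11674 were. Nfkbiz was lower there, at 28.4 CPM (10.4 to 61.8) from 6 UMIs against 93.6 CPM (log2 ratio -1.61, -3.17 to -0.60), where 6.74% of genes were. Niche Nfkbia, at 540 against 346 CPM, had a log2 ratio of 0.65 (0.36 to 0.91), and Nfkbie one of -1.24 (-2.66 to -0.30). Both intervals excluded equal levels but reached inside 1.5-fold. The niche intervals of Nfkb1, Nfkb2, Rel, Rela, Relb and Birc3 held equal levels. The lower niche count for Nfkbiz was lost when lymphoid cells with macrophage markers were left out (-1.31, -3.07 to -0.23) and under a stricter cell filter (-1.23).

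The lymphoid sum hid differences among its classes. In the distal library T cells had higher Nfkbia (log2 ratio to the other classes 0.998, 0.92 to 1.08) and Tnfaip3 (1.37, 1.19 to 1.54), 2 of 10 genes where 11.5% of all genes were. B cells had lower Nfkbia (-1.28, -1.57 to -1.03) and Nfkbiz (-1.87), where 14% of genes were, and higher Rel (1.45, 1.21 to 1.67), where 5.11% were. NK cells had higher Tnfaip3 (2.17), Nfkbia (1.73) and Nfkbiz (1.46), where 3.81% were, and none lower, where 4.26% were. The myeloid sum likewise joined neutrophils, high for Nfkbia, to alveolar macrophages, low for it. When each cell counted equally in place of each UMI, the distal Nfkbia ratio was -0.0453 and the Tnfaip3 ratio 0.96. Nfkbia also lost its count at Leiden resolution 2 (0.64) and with cells gated on markers (0.66). Interstitial macrophage markers were found in the lymphoid cells at 85.2 CPM in distal and 317 CPM in niche T cells, with 7 of 8 detected in each, and at 575 and 901 CPM in B cells. Those levels correspond to 0.468% and 2.17% of the macrophage level for T cells and 3.16% and 6.16% for B cells, and their part in the NF-kB values was not tested.

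Niche and distal cells of a class could be compared in the 6 classes with enough cells in both libraries. In macrophages Nfkbiz was 89.5 CPM (86.0 to 93.2) in niche and 183 CPM (170.4 to 196) in distal cells, a log2 ratio of -1.03 (-1.15 to -0.91). Nfkbia was 346 CPM (339 to 353) in niche and 551 CPM (529 to 573) in distal cells, a ratio of -0.67 (-0.74 to -0.61). These were 2 of 10 genes lower in the niche library, where 3.78% of 11559 genes were lower, and none was higher, where 1.74% were. Tnfaip3 (48.1 against 75.9 CPM) and Birc3 (48.9 against 77.1 CPM) each had a ratio of -0.66 and intervals that reached inside 1.5-fold, as did that of Rel at -0.52. The intervals of Rela at -0.32 (-0.55 to -0.07) and Nfkb1 at -0.28 (-0.43 to -0.11) lay below 0 but wholly inside 1.5-fold. The intervals of Relb at -0.08 and Nfkb2 at 0.18 held 0, and Nfkbie stood above it at 0.35 (0.17 to 0.53), from 88.4 against 69.4 CPM. The median over the 10 genes was -0.42 and that over all genes tested -0.03.

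These differences depended on which macrophages were taken. Under a stricter cell filter, which asked for 500 genes and allowed 5% mitochondrial UMIs, 357 distal and 1867 niche macrophages remained. The ratios were then -0.39 (-0.48 to -0.30) for Nfkbia and -0.52 (-0.69 to -0.35) for Nfkbiz, neither wholly beyond 1.5-fold. Nfkbia also lost its count when ratios were centred on the median (-0.64) and without macrophages that held T or B cell markers (-0.63, -0.71 to -0.55), while Nfkbiz kept it in both (-0.9976 and -1.06). T cell markers summed to 192 CPM in distal and 93.5 CPM in niche macrophages, and B cell markers to 208 and 71.5 CPM, with all 7 and all 6 markers detected. Gene lists and software versions differed between the libraries and cannot be told apart from niche and distal, although no NF-kB gene shares exonic bases with a gene found in 1 list alone.

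**Figure D3:**
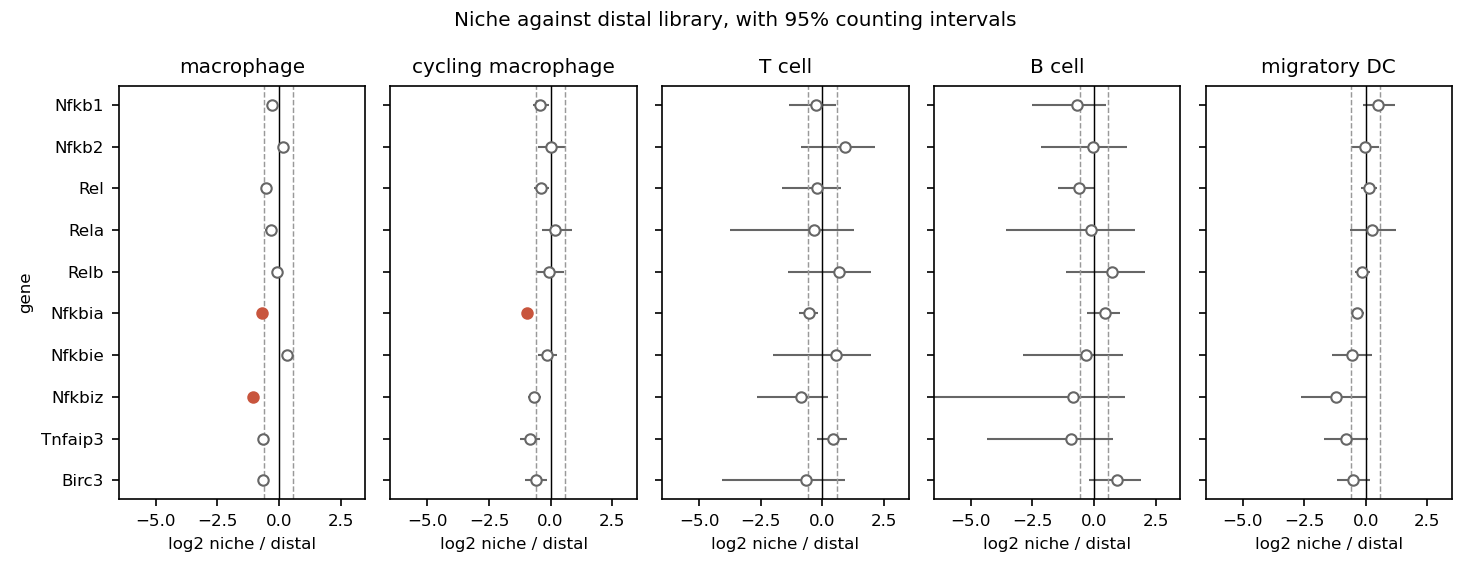
Log2 ratio of niche over distal level for each NF-kB gene in 5 classes, with 95% counting intervals. Dashed lines mark 1.5-fold and filled red points are genes whose interval lies wholly beyond it, which are Nfkbia and Nfkbiz in macrophages and Nfkbia in cycling macrophages.

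Cycling macrophages gave a lower Nfkbia in the niche library, 312 CPM (299 to 325) against 606 CPM (556 to 660), with a log2 ratio of -0.96 (-1.10 to -0.82). It was 1 of 10 genes, where 3.05% of 9695 genes were lower, and none was higher, where 1.87% were. Nfkbiz at -0.67 (-0.92 to -0.41) and Tnfaip3 at -0.84 (-1.22 to -0.42) had intervals that reached inside 1.5-fold. In T cells and migratory dendritic cells, where all 10 genes had enough UMIs to be tested, and in B cells and stromal cells, where 8 did, none was counted in either direction. For T, B, migratory dendritic and stromal cells in turn, 1.63%, 0.52%, 1.07% and 1.24% of genes were lower and 1.21%, 0.657%, 1.73% and 3.11% were higher. The intervals there were wide. For Nfkbia the ratio was -0.55 (-0.95 to -0.19) in T cells and -0.35 (-0.61 to -0.09) in migratory dendritic cells, both below 0. It was 0.45 (-0.28 to 1.07) in B cells and 0.52 (0.14 to 0.90) in stromal cells. In migratory dendritic cells Relb had a ratio of -0.14 (-0.45 to 0.19), Rel one of 0.11 (-0.21 to 0.45) and Nfkb2 one of -0.04 (-0.59 to 0.52).

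Few other genes of the pathway were counted in macrophages. None of the 15 further inhibitor and feedback genes was counted, and their median log2 ratio was -0.09. Of 31 kinases and adaptors 1 was higher, Malt1, which encodes a paracaspase of antigen receptor signalling. It stood at 105 CPM in niche against 18.2 CPM in distal macrophages (log2 ratio 2.51, 2.20 to 2.87). Malt1 was not particular to macrophages, with 311 against 38.1 CPM in B cells and 63.5 against 11.2 CPM in cycling macrophages. Gene lists and software versions differed between the libraries, and their part in the Malt1 values was not tested. Of 15 receptors tested 2 were lower, Tlr7 at 14.2 against 26.9 CPM and Tnfrsf13c, a B cell receptor for BAFF, at 2.08 against 6.78 CPM. Tnfrsf13c rested on 57 niche and 29 distal UMIs. B cell markers were likewise lower in niche macrophages, as given above, and their part in the Tnfrsf13c value was not tested. Among 31 targets 6 were lower and 2 higher, and the lower ones were led by the chemokine genes Cxcl1 (-1.62), Ccl3 (-1.31) and Cxcl2 (-1.15).

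Of the clusters that made up the macrophage class, 6 had enough cells in both libraries. Nfkbia was lower in niche cells of cluster 4, at 223 against 453 CPM (log2 ratio -1.03, -1.24 to -0.80), and of cluster 8, at 363 against 640 CPM (-0.82, -0.96 to -0.68). In cluster 7 Nfkbia was 433 against 659 CPM (-0.61, -0.75 to -0.46), below 0 but with an interval that reached inside 1.5-fold. Over all genes tested 1.92% were lower in cluster 4, 1.31% in cluster 7 and 1.63% in cluster 8. Nfkbiz was lower in clusters 4 (-1.18), 7 (-1.03) and 8 (-0.95), and Tnfaip3 in cluster 4, at 30.2 against 93.3 CPM (-1.64, -2.14 to -1.09). In cluster 1, which held 840 niche and 109 distal cells, neither was counted: Nfkbia had a ratio of -0.03 (-0.19 to 0.14) and Nfkbiz one of -0.01 (-0.36 to 0.39). In cluster 17, with 48 niche and 40 distal cells, Nfkbia stood above 0, at 1043 against 631 CPM (0.72, 0.47 to 0.98). In cluster 13, with 169 niche and 30 distal cells, the intervals of all 3 genes held 0, with ratios of -0.26 for Nfkbia, -0.30 for Nfkbiz and 0.63 (-0.27 to 1.87) for Tnfaip3. The mean over the 6 clusters was -0.34 for Nfkbia and -0.56 for Nfkbiz, closer to 0 than over the whole class.

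A stress list of 15 genes, immediate early genes and the heat shock genes Hsp90aa1, Hspa1a and Hspa1b, which tissue dissociation is known to induce, was added after these values had been seen. In macrophages 14 of the 15 were below 0 and 11 were lower by the same rule, with a median log2 ratio of -0.81 and summed levels of 5435 CPM in niche and 8906 CPM in distal cells. They included Jun (-1.27), Dusp1 (-0.99) and Fos (-0.66), and the gene above 0 was Hsp90aa1 (0.25). The list's median was -0.68, -0.89 and -0.76 in clusters 4, 7 and 8, -0.21 in cluster 1, -0.28 in cluster 13 and 0.11 in cluster 17. In cycling macrophages it was -1.16, with 14 of 15 genes below 0 and 10 lower, and in migratory dendritic cells -0.68 over 12 genes tested, with 3 lower. In T and B cells the median lay above 0, but the summed levels had no common direction. The median was 0.22 in T cells, with 5 of 13 genes tested below 0, 0 lower and 1 higher. In B cells it was 0.14, with 6 of 13 below 0, 1 lower and 0 higher. Summed levels of the list were 4594 CPM in niche and 4220 CPM in distal T cells, and 4192 and 4282 CPM in B cells. The part of the stress list in the NF-kB differences was not tested.

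**Figure D4:**
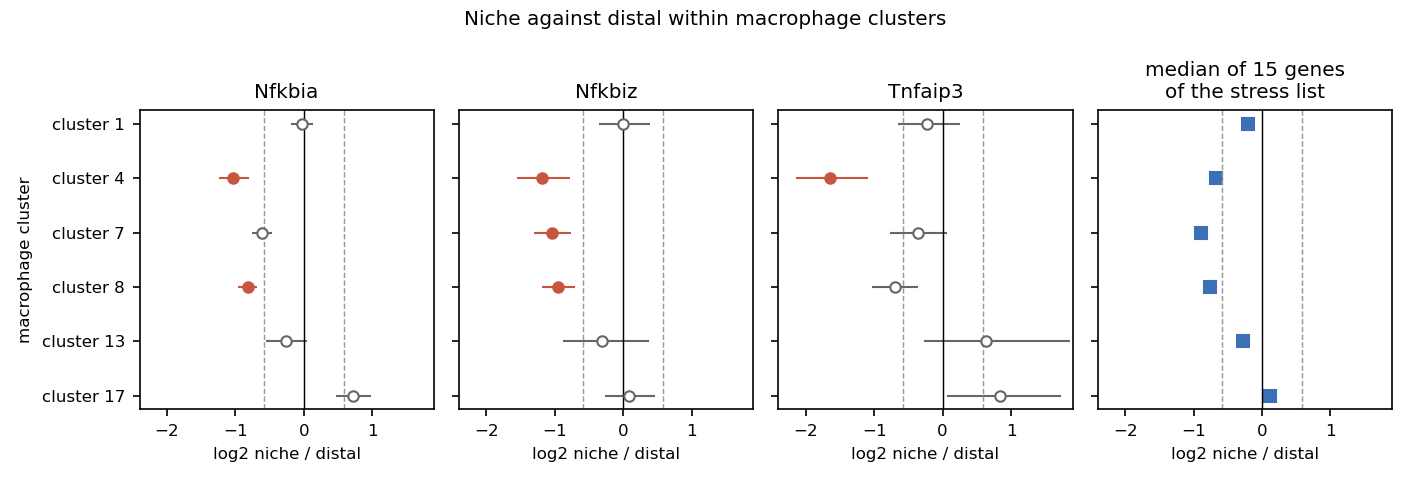
Log2 ratio of niche over distal level of Nfkbia, Nfkbiz and Tnfaip3 with 95% counting intervals, and the median of the 15 genes of the stress list, in the 6 macrophage clusters with at least 30 cells in each library. Clusters 4, 7 and 8 lie left of 0 for Nfkbia, Nfkbiz and the stress list, cluster 1 lies near 0, and Nfkbia in cluster 17 is at 0.72.

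Whether NF-kB RNAs were found in the same cells was read after each cell was thinned to 1000 UMIs, since deeper cells show more genes. In macrophages Nfkbia was detected in 34.9% of 536 distal and 25.6% of 2067 niche thinned cells. Without thinning the shares were 76.7% and 81.5%, the opposite order. Nfkbiz was detected in 17.4% and 7.55% of the thinned and in 51.8% and 48.6% of the unthinned cells. Migratory dendritic cells showed the most members per thinned cell, with means of 2.19 in distal and 2.06 in niche cells, against 0.588 in distal alveolar macrophages. None of the 10 genes is known to be silent in any of these classes, so no class gives a background share for free RNA.

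Nfkbia and Nfkbiz were found together more often than the product of their shares. In distal macrophages 62 of 536 cells held both (11.6%, 8.98 to 14.6%, exact binomial) where 32.4 were expected, a ratio of 1.91. In niche macrophages 60 of 2067 cells did where 39.9 were expected (1.503), in niche cycling macrophages 14 of 303 where 6.93 were (2.02), in distal T cells 31 of 365 where 19.5 were (1.59) and in distal neutrophils 71 of 213 where 49.5 were (1.43). The expected share lay below the interval of the observed one in each of these classes. Within macrophage clusters the ratios were 1.76 in the distal and 1.26 in the niche library. In cells thinned to 5000 UMIs, a depth chosen after the first values were seen, the macrophage ratios were 1.20 and 1.14 and the T cell ratio 1.04. Only 213 of 358 distal neutrophils were deep enough for thinning to 1000 UMIs. With the highest 5% of doublet scores removed, the highest ratio of any member pair was 1.64 in distal and in niche macrophages. No pair was then expected in 5 niche cycling macrophages.

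Tnfaip3 joined this pair in some classes. Nfkbia and Tnfaip3 gave 52 cells where 39.5 were expected in distal T cells, a ratio of 1.32, 43 where 25.6 were expected in niche macrophages (1.68) and 39 where 24.5 were expected in neutrophils (1.60). Nfkbiz and Tnfaip3 gave 12 cells where 5.73 were expected in distal and 17 where 7.55 were expected in niche macrophages. In niche macrophages 5 of 35 member pairs had an interval above the expected share, against 0.819% of all gene pairs with at least 5 cells expected, and in distal macrophages 2 of 14 pairs, against 0.459%. In T cells the counts were 2 of 10 pairs against 0.437%, and in neutrophils 2 of 13 pairs against 0.18%. No member pair passed in distal B cells (3 pairs, against 0.117%), alveolar macrophages (10 pairs, against 0.61%) or non-classical monocytes (7 pairs, against 0.0906%). In niche cycling macrophages the only pair with 5 cells expected passed, against 0.188%. With the highest 5% of doublet scores removed, 3 of 31 pairs passed in niche macrophages (against 0.732%) and 1 of 12 in distal macrophages (against 0.389%). In T cells 1 of 10 pairs then passed (against 0.438%), and in neutrophils the count stayed at 2 of 13. The counts also changed with depth. In alveolar macrophages 4 of 45 pairs passed at 5000 UMIs and 13 of 45 without thinning, and in T cells 0 of 21 passed at 2000 UMIs, 0 of 24 at 5000 UMIs and 8 of 43 without thinning. Pairs of 1 class share cells and genes and are not independent. The shares over all gene pairs were not matched to the member pairs for the number of cells expected.

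The partners Nfkb2 and Relb were too sparse to compare at 1000 UMIs in most classes. At 5000 UMIs 122 of 1919 niche macrophages held both where 85.3 were expected, a ratio of 1.43, and 15 of 424 distal macrophages did where 14.5 were expected.

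**Figure D5:**
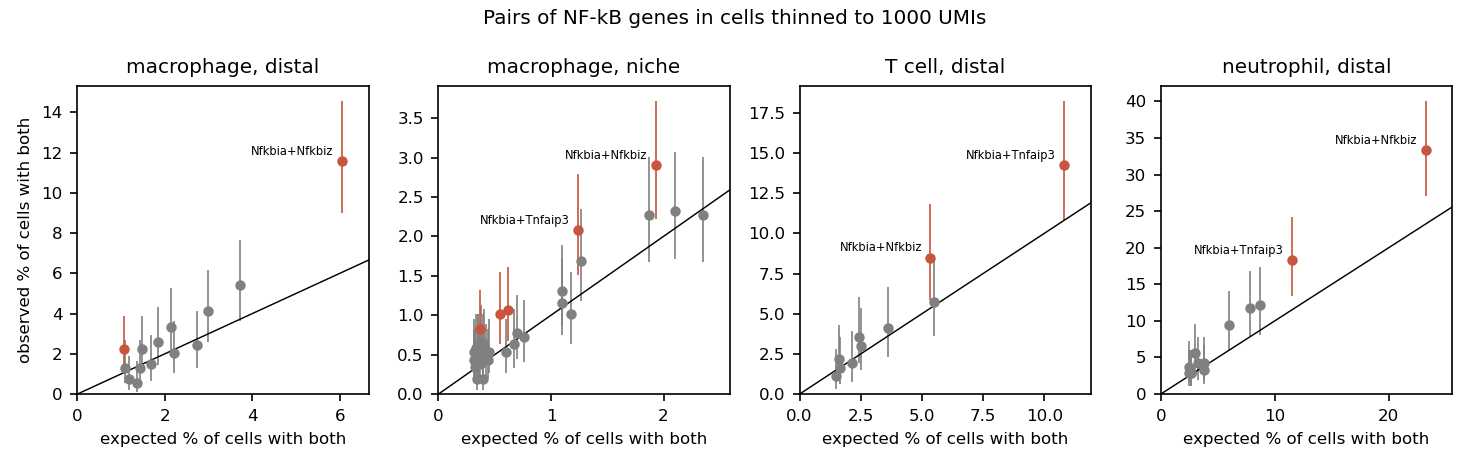
Observed against expected share of cells holding UMIs of both genes, for each pair of NF-kB genes expected in at least 5 cells, after thinning to 1000 UMIs. Bars are 95% binomial intervals, the line marks equality, red points have an interval wholly above it, and those with Nfkbia are named, such as Nfkbia with Nfkbiz in all 4 panels.

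Across the 20 points of class and library, Nfkb2 and Relb had the most similar profiles among the members, with a Pearson r of 0.91 for log2(CPM + 5). Nfkbia had an r of 0.76 with Tnfaip3 and 0.71 with Nfkbiz. Among 6301 genes, those most like Relb were Adcy6 (0.94), Pfkfb3 (0.94) and Cacnb3 (0.94), the last a marker of migratory dendritic cells. Those most like Rel were Myo1g (0.88), the NIK gene Map3k14 (0.87) and Epsti1 (0.84). Nfkbiz was most like Dusp1 (0.87) and Btg2 (0.83), both immediate early genes, and Cd244a (0.81), and Tnfaip3 most like Il18rap (0.86), Slc9a3r1 (0.85) and Ipcef1 (0.83). For Nfkbia the closest were Rgs3 (0.84), Mfsd6 (0.81) and Pim1 (0.80), and for Nfkb2, after Relb, Fgfbp3 (0.89) and the migratory marker Fscn1 (0.86). These are descriptions, since points of 1 library share depth and gene list and a few points, the 2 migratory dendritic ones above all, set the profiles of Relb and Nfkb2.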

How the data were processed

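The authors deposited 10x Genomics matrices of UMI counts, with 1 distal and 1 niche library. Per the file headers, the software versions were 3.0.2 (distal) and 6.0.0 (niche), and mm10, GRCm38, Bowtie2, RSEM, Cell Ranger 3.02 and Seurat 4.1.1 are named per the submitters' processing notes. The gene lists held 30149 and 32285 genes and were joined by Ensembl identifier.

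Barcodes needed 200 detected genes and no more than 10% of UMIs from mitochondrial genes. Scrublet called 6 distal and 0 niche doublets (0.0906%), which was taken as a failed call, so doublets remain, and removing the highest 5% of scores was an alternative. Both libraries were clustered together in scanpy 1.11.5 without the NF-kB lists, with 2000 variable genes, 30 components, 20 neighbours and Leiden resolution 1. Naming thresholds were set after the clusters were seen, and 282 distal and 466 niche cells stayed unnamed.

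Levels are summed UMIs scaled to the UMIs of all shared genes (CPM), with exact Poisson intervals. Log2 ratios add 0.5 UMI to each sum and carry exact conditional binomial intervals. A gene with at least 20 UMIs over both sums was called higher or lower when its 95% interval lay wholly beyond 1.5-fold. Shares of cells carry Clopper-Pearson intervals. Co-detection was compared in classes with at least 100 cells of 1000 UMIs and for pairs expected in at least 5 cells. The rule was tested on simulated counts of 11503 genes for niche against distal macrophages. It called 50 of 50 genes changed 4-fold up, 31 of 50 changed 2-fold up and 5 of 11304 left unaltered. Downward it called 43 of 49 genes at 0.25 and 31 of 50 at 0.5 of the level. The simulated counts held counting error only, so they say nothing of calls that arise from differences between libraries.

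All 10 members were followed in each comparison, although not every value is printed. From each pathway list the 3 called genes with the largest ratios and at least 50 UMIs may be named, and for each member the 3 genes with the highest r. The members and lists were chosen with earlier results of these data known. Alternatives changed the cell filter, clustering, gating, doublets, scaling, cell weights, gene list, thinning and call thresholds.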

Additional observations from a re-analysis of the deposited data

Results flagged for a closer look

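Some niche over distal log2 ratios had 95% counting intervals wholly on the opposite side of 0 from those of another class or cluster. With 1 library in each group the difference between them was not tested. For Nfkbia the ratio was 0.52 in stromal cells and 0.72 in macrophage cluster 17, against -1.03 in macrophage cluster 4. For Nfkbiz it was 1.26 in stromal cells and -1.18 in cluster 4. For Tnfaip3 it was 0.84 in cluster 17 and -1.64 in cluster 4. The 34 niche stromal cells held interstitial macrophage markers at 57.4% of the macrophage level and the 102 distal ones at 23.2%, and their part in the stromal ratios was not tested.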

How the results depend on the processing

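Of the counts and ratios that answer a comparison, 218 recomputed values stayed near the first value and 32 moved. Of the remaining recomputed values 1725 stayed near the first, 118 moved, 36 were stronger, 19 weaker and 3 reversed. The niche over distal macrophage ratio of Nfkbia stayed near the first value in 9 alternatives, was weaker in 7 and reversed in 1. That of Nfkbiz stayed near it in 12, was weaker in 4 and reversed in 1. With the stricter cell filter 0 NF-kB genes were lower in niche macrophages, 0 in niche lymphoid cells and 0 in niche migratory dendritic cells, and 3 other pathway genes were lower in niche macrophages. At Leiden resolution 2, 2 NF-kB genes were lower in niche cycling macrophages and 1 was higher in distal lymphoid cells. Gating on markers gave 1 higher in distal lymphoid cells and 5 other pathway genes higher in niche macrophages. Removing the highest 5% of doublet scores gave 2 lower in cycling macrophages. Centring on the median ratio gave 1 lower in niche macrophages and 7 higher in neutrophils. Weighting each cell equally, which has no interval, gave 4 lower in niche macrophages, 3 in cycling macrophages, 5 in T cells with 1 higher, 5 in B cells and 2 in migratory dendritic cells. It also gave 3 lower in distal and 4 in niche lymphoid cells, 1 in distal migratory dendritic cells and 2 in neutrophils, and turned the distal lymphoid Nfkbia ratio to -0.0453. Leaving out lymphoid cells with macrophage markers gave 0 lower in niche lymphoid cells. Leaving out macrophages with T or B cell markers, added after the data were seen, gave 1 lower in macrophages and 0 in niche lymphoid cells. In macrophage cluster 17, also added, Nfkbia was 0.72 and Nfkbiz 0.091. A 2-fold limit left 1 other pathway gene higher and 5 lower in macrophages. For Nfkbia with Nfkbiz, 5000 UMIs gave ratios of 1.04 in T cells, 1.20 in distal and 1.14 in niche macrophages, and no thinning gave 1.16, 1.09 and, in niche cycling macrophages, 1.07. The causes were not tested. No paired analysis was possible because each group has 1 library. Depth was limited in small classes, such as the 36 niche T cells and 38 niche B cells.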

Other observations

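Clusters that stayed unnamed belong to no comparison above. Cluster 31, led by Ccl17, Ccl22 and Il12b, had Relb at 188 CPM (145 to 241) in 36 distal and 218 CPM (170.0 to 277) in 30 niche cells, and Rel at 368 and 427 CPM. Cluster 15, led by Scgb1a1 and by neutrophil genes such as S100a9 and Csf3r, had Nfkbia at 998 CPM in 79 distal and 619 CPM in 53 niche cells, and Nfkbiz at 359 and 205 CPM. Cluster 33, led by Mgl2 and Cd209a, held 46 distal cells. It had Nfkbiz at 364 CPM, against 121 CPM in the 49 distal cells named conventional dendritic. Tnfaip3 stood at 193 against 82.3 CPM, Birc3 at 105 against 45.5 CPM and Nfkb2 at 24.1 against 41.1 CPM.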
